A study of Caenorhabditis elegans with 12 samples.

Results

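The 46 genes described here are germline, meiosis, oocyte and eggshell genes of Caenorhabditis elegans, listed by name and by no threshold on their values, out of 46778 genes in the count files. Each symbol matched 1 gene identifier, all 46 had counts in all 12 libraries (the lowest count was 447), and all 46 were among the 15523 genes tested. They fall into 5 groups by role: 5 regulators of the stem cell and mitotic zone, 9 genes of P granules and small RNA pathways, 8 meiotic genes, 13 oocyte RNA-binding and maternal regulators, and 11 genes of the eggshell and oocyte surface.

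RNA was sequenced from whole adults on day 9 and day 1 of adulthood, with 3 libraries in each of 4 groups. The mutants were of strain CF1041 with the daf-2(e1370) allele, a missense allele that weakens the insulin-type receptor DAF-2, and the wild type was N2. All 4 groups were fed OP50 bacteria and received 50 µM FUdR, a blocker of DNA synthesis, as fourth-stage larvae or young adults, so wild type carried the drug too. Library totals ran from 20322128 to 47447136 counts.

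The adult hermaphrodite gonad is a tube in which stem cells at the far end divide under a Notch signal from the niche, enter meiosis, pass through pachytene and grow into oocytes. Oocytes transcribe little late in their growth and rely on RNA-binding proteins, which hold maternal transcripts silent until the embryo needs them. P granules are condensates of RNA and protein that mark germ cells, and the eggshell is built in layers from proteins that the oocyte has already made. In whole-animal RNA, fewer germ cells and less RNA per germ cell cannot be told apart.

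Levels are CPM, the counts of a gene relative to its library's total after scaling by the trimmed mean of M values (TMM). Changes are log2 changes ± SE from edgeR's quasi-likelihood test, and a gene is said to rise or fall where the p-value adjusted by the Benjamini-Hochberg method over the 15523 genes was under 0.05. The labels call the 3 libraries of a group biological repeats. The calls depend on the scaling: with plain library totals the median of all genes moved up by 0.35 log2 units in the ageing comparison of wild type and by 0.34 in that of daf-2.

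Before TMM scaling the 46 genes took 2.42, 2.51 and 2.55% of all counts in the daf-2 day 9 libraries, against 1.499, 1.92 and 2.47% in the daf-2 day 1 libraries. In wild type they took 2.63, 2.47 and 2.75% at day 9, against 2.37, 2.704 and 2.63% at day 1. The ages overlapped in both genotypes. The lowest value of the 12 was that of daf-2 day 1 replicate 1, which stood below the other libraries and bears on each comparison that uses it.

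Ageing changed the genes unequally. Of the 46 genes, 6 rose and 7 fell with age (day 9 over day 1) in daf-2, and 4 rose and 25 fell in wild type. Over all tested genes, 21.9% rose and 21.5% fell in daf-2, and 31.2% rose and 25.6% fell in wild type. The median log2 change of the 46 genes was 0.00 in daf-2 and -0.42 in wild type, against 0.01 and 0.09 over all tested genes. With plain library totals the counts were 21 higher and 3 lower in daf-2, and 9 higher and 9 lower in wild type.

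Some calls held in every alternative. In wild type 9 genes fell in the main result and in all 20 alternatives (fbf-2, gld-1, pgl-1, pgl-3, glh-1, csr-1, car-1, cgh-1 and chs-1), and perm-2 and perm-4 rose in all. In daf-2 car-1, cgh-1 and chs-1 fell and perm-4 rose in all 20. Single libraries moved the other counts. Without daf-2 day 1 replicate 1, 2 genes rose and 12 fell in daf-2, and without daf-2 day 9 replicate 2 only perm-4 rose, with 6 genes falling. In wild type the 4 rises became 2 without day 1 replicate 1, day 1 replicate 2 or day 9 replicate 2.

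**Figure D1:**
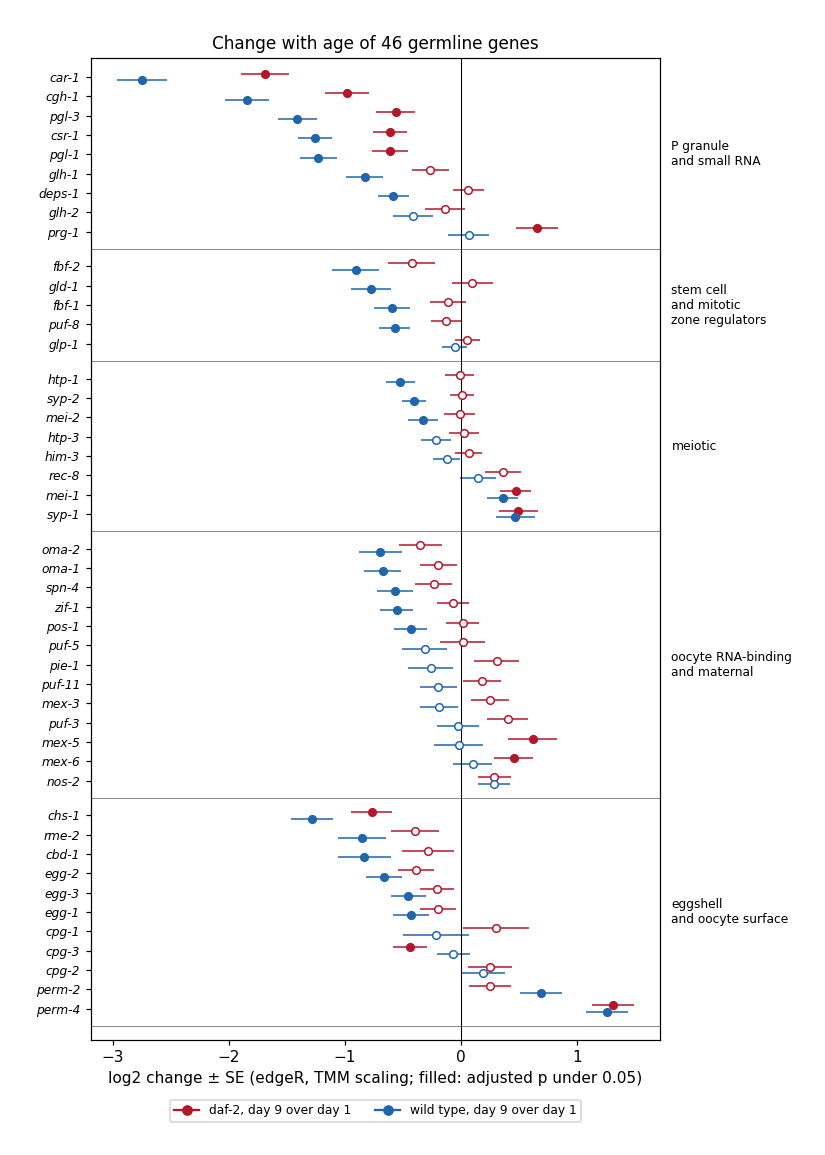
Log2 change with age (x axis, ± SE, day 9 over day 1) of the 46 genes (y axis), grouped by role, in daf-2 (red) and wild type (blue); filled points have an adjusted p under 0.05. The points of car-1 and cgh-1 lie farthest to the left and those of perm-4 farthest to the right in both genotypes.

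The P granule and small RNA group held the largest falls. In daf-2 5 of its 9 genes fell and 1 rose, with a median change of -0.56. In wild type 7 fell and 0 rose, with a median of -1.23. The falls were 55.6% in daf-2 and 77.8% in wild type, against 21.5% and 25.6% of all tested genes. The rises were 11.1% and 0.0%, against 21.9% and 31.2%. The edgeR test gave an unadjusted p under 0.05 for 6 of the 9 in daf-2 and for 8 in wild type, and DESeq2 also called none of the 9 as higher in wild type.

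On the WBcel235 build, the gene car-1 (chromosome I, 12904470 to 12906040) encodes an RNA-binding protein of germline RNA granules and had the largest change of all 46. It stood at 354, 297 and 317 CPM in the daf-2 day 9 libraries, against 744, 1071 and 1301 CPM in the daf-2 day 1 libraries. In wild type it had 274, 218 and 269 CPM at day 9, against 1600.1, 2124 and 1389.7 CPM at day 1. No day 9 library reached any day 1 library of either genotype. Its level fell 3.22-fold in daf-2 (-1.69 ± 0.21, adjusted p = 6.57e-05) and 6.72-fold in wild type (-2.75 ± 0.22, adjusted p = 1.75e-06).

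The gene for a helicase of the same granules fell too. The gene cgh-1 (III, 7495320 to 7497832), whose DEAD-box RNA helicase protects stored oocyte transcripts, had 932, 986 and 1268 CPM in daf-2 at day 9, against 1558, 2366 and 2360.1 CPM at day 1. Wild type had 948, 769 and 889.5 CPM at day 9, against 2921, 3548 and 2879 CPM at day 1. The ages did not overlap in either genotype, and the changes were -0.98 ± 0.19 in daf-2 (adjusted p = 0.00136) and -1.84 ± 0.19 in wild type (adjusted p = 1.14e-05).

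Genes for scaffold proteins of P granules and for an Argonaute fell less steeply. The 2 PGL scaffold genes changed by -0.61 ± 0.16 (pgl-1) and -0.56 ± 0.17 (pgl-3) in daf-2, and by -1.23 ± 0.16 and -1.41 ± 0.17 in wild type. The calls of pgl-1, pgl-3 and csr-1 in daf-2 were lost with plain library totals (adjusted p = 0.107, 0.295 and 0.0952), and that of pgl-3 also without daf-2 day 1 replicate 2 or 3 or day 9 replicate 1. Expression of csr-1, an Argonaute that binds small RNAs against germline transcripts, changed by -0.61 ± 0.15 in daf-2 and -1.26 ± 0.15 in wild type. The csr-1 exons share 11.9% of their bases with those of frpr-10 on the same strand, so some of its counts may belong to that gene.

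Of the close Vasa-type helicase genes glh-1 and glh-2, whose reads could be split between them, glh-1 fell in wild type. In daf-2 glh-1 had 455, 569 and 464 CPM at day 9, against 517, 673 and 594 CPM at day 1, and in wild type 558, 447 and 466 CPM at day 9, against 807, 1051 and 749 CPM at day 1. Only the fall in wild type was called (-0.83 ± 0.16, adjusted p = 0.000982). For glh-2 the values in daf-2 were 141, 186 and 157 CPM at day 9, against 136, 183 and 213 CPM at day 1. In wild type they were 173, 143 and 165 CPM at day 9, against 219.8, 249 and 172 CPM at day 1. Neither change was called in the main result (adjusted p = 0.551 in daf-2 and 0.061 in wild type). In wild type glh-2 was called as lower with DESeq2 (-0.46, adjusted p = 0.0372) and a fit of only the groups compared (-0.44, adjusted p = 0.0239). That call was also made without wild-type day 1 replicate 3 or daf-2 day 1 replicate 1 or 3. The P granule assembly gene deps-1 fell in wild type (-0.58 ± 0.14, adjusted p = 0.0033), and its change in daf-2 was 0.06 ± 0.14.

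The Piwi protein of prg-1 (I, 7585329 to 7588367) binds piRNAs. The prg-1 transcript had 501, 619 and 407 CPM in daf-2 at day 9, against 261, 358 and 353 CPM at day 1, and rose there (0.65 ± 0.18, adjusted p = 0.012). The call was lost without daf-2 day 9 replicate 2 (adjusted p = 0.059). In wild type prg-1 had 514, 476 and 453 CPM at day 9, against 363, 508 and 507 CPM at day 1, with overlapping ages (0.07 ± 0.18, adjusted p = 0.77).

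Regulators of the stem cell and mitotic zone fell in wild type, except glp-1. In wild type 4 of 5 fell (80.0%, against 25.6% of all tested genes) and 0 rose (against 31.2%). In daf-2 0 rose and 0 fell, against 21.9% and 21.5% of all tested genes. There 0 of the 5 had an unadjusted p under 0.05 in edgeR, and DESeq2 called 0 of them too. The Notch receptor gene glp-1 (III, 9092241 to 9099698), which receives the niche signal, had 158, 181 and 190.2 CPM in daf-2 at day 9, against 145, 178 and 187 CPM at day 1. In wild type it had 178, 160.4 and 178 CPM at day 9, against 177, 187 and 173 CPM at day 1. The 12 libraries thus lay within a narrow range, with changes of 0.06 ± 0.11 in daf-2 and -0.05 ± 0.11 in wild type. The sign in wild type turned with plain library totals, where glp-1 was called as higher (0.30, adjusted p = 0.026).

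The translational repressor gene gld-1 (I, 7695681 to 7698222), whose STAR-domain protein promotes meiotic entry and oogenesis, had the highest counts of the group. It had 839, 1037 and 974 CPM in daf-2 at day 9, against 674, 977 and 1011 CPM at day 1, a change of 0.10 ± 0.18 (adjusted p = 0.673). Wild type had 830.5, 692 and 809.9 CPM at day 9, against 1166, 1593 and 1230.0 CPM at day 1, without overlap, and fell (-0.77 ± 0.18, adjusted p = 0.00276).

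The pair fbf-1 and fbf-2 encodes near-identical PUF proteins that keep stem cells from entering meiosis, so reads could be split between the 2 genes and each value is uncertain. In daf-2 fbf-1 had 29.9, 34.6 and 27.4 CPM at day 9, against 31.8, 38.8 and 29.0 CPM at day 1, and in wild type 29.7, 25.01 and 24.1 CPM at day 9, against 36.3, 47.9 and 34.9 CPM at day 1. For fbf-2 daf-2 had 19.9, 24.2 and 17.4 CPM at day 9, against 26.8, 34.2 and 21.4 CPM at day 1, and wild type 23.1, 18.4 and 18.7 CPM at day 9, against 35.4, 47.4 and 30.4 CPM at day 1. Both fell in wild type (fbf-1 -0.59, adjusted p = 0.00664, and fbf-2 -0.91, adjusted p = 0.00262), as did puf-8, another PUF gene of the mitotic zone (-0.57 ± 0.13). In daf-2 these 3 genes changed by -0.11, -0.42 and -0.13, and none was called in the main result (adjusted p = 0.582, 0.11 and 0.456). Without daf-2 day 1 replicate 3 fbf-2 was called as lower there (-0.615, adjusted p = 0.0327).

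Among the meiotic genes, in daf-2 2 of the 8 rose and 0 fell, and in wild type 2 rose and 3 fell, with median changes of 0.05 and -0.17. DESeq2 also called 0 of the 8 as lower in daf-2, where edgeR gave an unadjusted p under 0.05 for 3.

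Katanin severs microtubules of the meiotic spindle, and its catalytic subunit gene mei-1 (I, 8294874 to 8296940) had the highest counts of the group. It had 159, 179 and 154 CPM in daf-2 at day 9, against 94.8, 117 and 143 CPM at day 1, and rose by 0.47 ± 0.14 (adjusted p = 0.0148). In wild type mei-1 had 159, 167 and 186 CPM at day 9, against 126, 127 and 147 CPM at day 1, and rose by 0.36 ± 0.14 (adjusted p = 0.0392). The ages did not overlap in either genotype, but the call in daf-2 was lost without daf-2 day 1 replicate 1 or day 9 replicate 2 (adjusted p = 0.0536 and 0.0603). The call in wild type was lost with DESeq2 (adjusted p = 0.0698), with no low-count filter, and on leaving out replicate 1 or 2 of day 1 or replicate 2 or 3 of day 9 in wild type, daf-2 day 1 replicate 2 or daf-2 day 9 replicate 1. The other katanin subunit gene, mei-2, fell in wild type (-0.33 ± 0.13, adjusted p = 0.0494), a call lost in 13 of 20 alternatives and a change of 0.029 with plain library totals. Its change in daf-2 was -0.01.

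The gene syp-1 (V, 16404274 to 16407701), for a central component of the synaptonemal complex that joins paired chromosomes, also rose. It had 104, 129.6 and 94.8 CPM in daf-2 at day 9, against 75.95, 84.2 and 72.5 CPM at day 1 (0.50 ± 0.17, adjusted p = 0.0313). In wild type it had 106, 93.5 and 89.0 CPM at day 9, against 67.7, 52.4 and 87.9 CPM at day 1 (0.47 ± 0.17, adjusted p = 0.031). The day 9 libraries lay above those of day 1 in both genotypes, by a small margin in wild type, where the call was lost in a fit of only the groups compared (adjusted p = 0.0568) and without day 1 replicate 1 or 2 or day 9 replicate 1 or 2. In daf-2 it was lost with scaling to other germline genes (adjusted p = 0.0562) and without day 1 replicate 1 or 3 or day 9 replicate 2. Exons of another gene on the same strand cover 16.9% of its exonic bases.

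For syp-2, another component of the same complex, the change was 0.01 ± 0.10 in daf-2, and in wild type it fell (-0.41 ± 0.10, adjusted p = 0.0057). The call was lost with plain library totals (-0.047, adjusted p = 0.681) and scaling to other germline genes (-0.12, adjusted p = 0.342). Among the HORMA-domain genes of the chromosome axis, htp-1 had 81.3, 92.8 and 74.9 CPM in daf-2 at day 9, against 78.8, 90.6 and 81.4 CPM at day 1, and 81.7, 78.95 and 69.5 CPM in wild type at day 9, against 94.3, 130.1 and 106 CPM at day 1. It fell in wild type (-0.52 ± 0.13, adjusted p = 0.00397) and changed by -0.01 in daf-2, which turned to 0.35 with plain library totals (adjusted p = 0.0342). The other axis genes him-3 (0.07 and -0.12 in daf-2 and wild type) and htp-3 (0.02 and -0.22), and the meiotic cohesin gene rec-8 (0.37 and 0.15), were not called in either genotype. In daf-2 rec-8 was called as higher with upper-quartile scaling (adjusted p = 0.0122), plain library totals (0.00121) and scaling to other germline genes (0.0171), among other alternatives. With plain library totals him-3 and htp-3 were called as higher there too.

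Of the 13 oocyte RNA-binding and maternal regulators, 2 rose (15.4%, against 21.9% of all tested genes) and 0 fell (against 21.5%) in daf-2. In wild type 0 rose (against 31.2%) and 5 fell (38.5%, against 25.6%). The median changes were 0.18 in daf-2 and -0.26 in wild type. The edgeR test gave an unadjusted p under 0.05 for 3 of the 13 in daf-2 and for 5 in wild type, and DESeq2 also called 0 as lower in daf-2 and 0 as higher in wild type. No interaction of age and genotype was called for any of the 13 in edgeR (unadjusted p under 0.05 for 2) or DESeq2.

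Those that fell in wild type included oma-1 and oma-2, which encode redundant zinc finger proteins needed for oocyte maturation. In daf-2 oma-2 (V, 8029439 to 8031214) had 329, 269 and 369.5 CPM at day 9, against 300.0, 405 and 527 CPM at day 1, and in wild type 352, 332 and 370.3 CPM at day 9, against 494, 612 and 604 CPM at day 1. The ages overlapped in daf-2 (-0.35 ± 0.18, adjusted p = 0.142) and were apart in wild type (-0.70 ± 0.18, adjusted p = 0.00688). Without daf-2 day 1 replicate 1 oma-2 was called as lower in daf-2 (-0.54, adjusted p = 0.0224). Expression of oma-1 was at 217, 219.9 and 279 CPM in daf-2 at day 9, against 215, 272 and 333 CPM at day 1, and at 228, 208 and 247 CPM in wild type at day 9, against 336, 407 and 346 CPM at day 1 (-0.67 ± 0.16, adjusted p = 0.00359). The zinc finger gene pos-1 (-0.43), the RNA-binding gene spn-4 (-0.57) and the ubiquitin ligase subunit gene zif-1 (-0.55 ± 0.14) were the other 3 that fell in wild type. The call of pos-1 was lost with upper-quartile scaling (adjusted p = 0.11), plain library totals and scaling to other germline genes, and on leaving out replicate 3 of day 1 or replicate 1 or 2 of day 9 in wild type. The changes of pos-1, spn-4 and zif-1 in daf-2 were 0.02, -0.23 and -0.07. That of spn-4 in daf-2 was called as lower without daf-2 day 1 replicate 1 (-0.39, adjusted p = 0.0435). The zif-1 transcript had 74.9, 76.1 and 77.02 CPM in daf-2 at day 9, against 62.4, 78.8 and 97.5 CPM at day 1, with overlap, and 86.4, 84.9 and 89.7 CPM in wild type at day 9, against 109, 141 and 133 CPM at day 1, without overlap.

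The zinc finger genes mex-5 and mex-6, close relatives whose proteins set up embryonic polarity, rose in daf-2. The mex-5 transcript (IV, 13353723 to 13356104) had 795, 896 and 1024 CPM in daf-2 at day 9, against 378, 629.9 and 759.9 CPM at day 1 (0.62 ± 0.21, adjusted p = 0.0332). In wild type it had 916, 848 and 966 CPM at day 9, against 797, 1066 and 902 CPM at day 1 (-0.02 ± 0.21, adjusted p = 0.948). The genotypes overlapped at day 9, and the daf-2 day 1 libraries were the ones that stood low. For mex-6 daf-2 had 385, 426 and 475 CPM at day 9, against 232, 315 and 391 CPM at day 1 (0.46 ± 0.17, adjusted p = 0.0462), and wild type 417, 401 and 469 CPM at day 9, against 346, 428 and 426 CPM at day 1 (0.10 ± 0.17). Without daf-2 day 1 replicate 1 neither was called (adjusted p = 0.0858 for mex-5 and 0.16 for mex-6), nor without daf-2 day 1 replicate 2 or day 9 replicate 2 or 3, and mex-6 was also lost without daf-2 day 9 replicate 1 or any wild-type library other than day 1 replicate 1. In wild type neither was called, and the difference between the genotypes was not called for either gene (interaction adjusted p = 0.22 and 0.39).

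No PUF gene of growing oocytes was called with age in the main result. The most abundant, puf-5 (II, 8575541 to 8577787), had 708, 754 and 889 CPM in daf-2 at day 9, against 524, 865 and 939 CPM at day 1, and 878, 898 and 995 CPM in wild type at day 9, against 969, 1276 and 1193 CPM at day 1 (changes of 0.01 ± 0.19 and -0.31 ± 0.20). The near-identical pair puf-3 and puf-11 is uncertain for the same reason as the FBF pair. In daf-2 puf-3 had 512, 591 and 657 CPM at day 9, against 321, 481 and 529 CPM at day 1, and puf-11 323, 364 and 442 CPM against 266, 346 and 382 CPM. Wild type had 600.3, 599.6 and 698 CPM of puf-3 at day 9, against 544, 722 and 666 CPM at day 1, and 408, 418 and 477 CPM of puf-11 against 429, 564 and 497 CPM. The changes were 0.40 (puf-3) and 0.18 (puf-11) in daf-2, and -0.02 and -0.19 in wild type. In daf-2 puf-3 was called as higher with upper-quartile scaling (adjusted p = 0.0185), plain library totals (0.00297) and scaling to other germline genes (0.0231). With plain library totals puf-11 was called as higher there too (0.00953).

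The Nanos gene nos-2 (II, 7065618 to 7067051), for a protein that acts in the embryonic germline precursors, had the most positive change of the group in wild type. It had 117, 127 and 138 CPM in daf-2 at day 9, against 86.4, 102 and 125 CPM at day 1, and 154, 163 and 160.3 CPM in wild type at day 9, against 109.8, 132 and 149 CPM at day 1. The wild-type libraries did not overlap, yet the change of 0.29 ± 0.14 was not called in either genotype (adjusted p = 0.11 in daf-2 and 0.0958 in wild type). It was called in both genotypes with upper-quartile scaling, plain library totals and scaling to other germline genes, and without day 1 replicate 3 of the genotype concerned. In wild type it was also called with the stricter filter (adjusted p = 0.0494). Exons of him-14 on the other strand cover 12.4% of its exonic bases. The KH-domain gene mex-3 (0.25 and -0.19 in daf-2 and wild type) and pie-1, a zinc finger gene that keeps germline blastomeres silent (0.31 and -0.26), were not called.

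**Figure D2:**
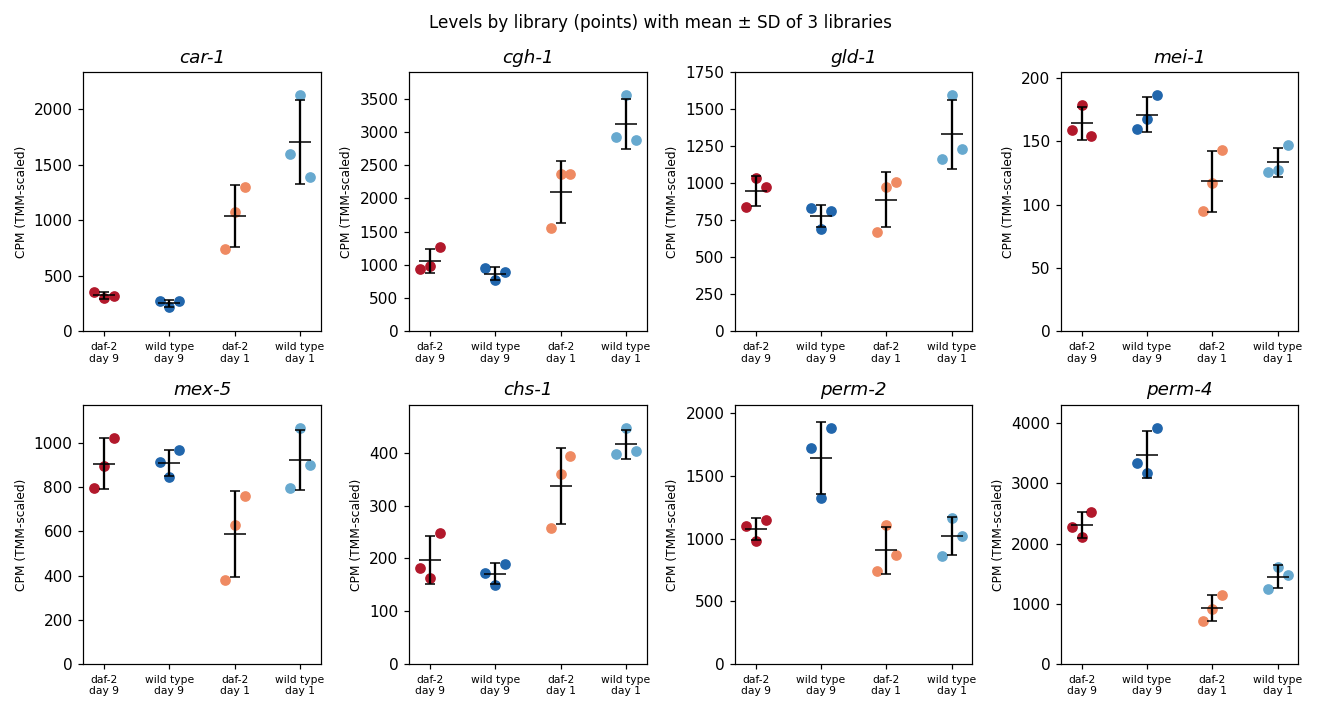
Level in TMM-scaled CPM (y axis, from 0) of 8 genes in each library (points), with mean ± SD of the 3 libraries of each group, the day 9 groups left of the day 1 groups and daf-2 left of wild type at each age. The day 9 points of car-1, cgh-1 and chs-1 lie below all day 1 points, those of perm-4 lie above them, and the daf-2 day 1 points of mex-5 are the lowest of that gene.

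The eggshell and oocyte surface group held falls and the largest rises. In daf-2 1 of its 11 genes rose and 2 fell, and in wild type 2 rose and 6 fell, with median changes of -0.20 and -0.43. The falls were 18.2% in daf-2 and 54.5% in wild type, against 21.5% and 25.6% of all tested genes. The rises were 9.1% and 18.2%, against 21.9% and 31.2%. The rises came from a pair of neighbouring genes, perm-4 (IV, 1121494 to 1125107, minus strand) and perm-2 (IV, 1126790 to 1128865, plus strand), transcribed away from each other with 1682 bases between them. Their products are eggshell proteins needed for the embryo's permeability barrier.

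The perm-4 transcript had 2275, 2106 and 2528 CPM in daf-2 at day 9, against 719, 919 and 1142 CPM at day 1. In wild type it had 3335, 3178 and 3914 CPM at day 9, against 1249, 1618 and 1479.8 CPM at day 1. All 6 day 9 libraries lay above all 6 day 1 libraries, and perm-4 rose 2.49-fold in daf-2 (1.31 ± 0.18, adjusted p = 0.000131) and 2.40-fold in wild type (1.26 ± 0.18, adjusted p = 0.000111). For perm-2, which was chosen for this detail after its values were seen, daf-2 had 1098, 984 and 1148 CPM at day 9, against 742, 1112 and 866 CPM at day 1, and wild type 1726, 1321 and 1881 CPM at day 9, against 864, 1169 and 1023 CPM at day 1. It rose in wild type (0.69 ± 0.18, adjusted p = 0.00647) and was not called in daf-2 (0.25 ± 0.18, adjusted p = 0.284), where the ages overlapped. The difference between the 2 changes was not called (interaction -0.44, adjusted p = 0.31).

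Genes for the chitin layer and the oocyte's receptors went the other way. The chitin synthase gene chs-1 (I, 7554855 to 7559916) had 182, 163 and 249 CPM in daf-2 at day 9, against 257, 359.7 and 395 CPM at day 1, and 173, 151 and 189.5 CPM in wild type at day 9, against 397, 447 and 404 CPM at day 1. The ages did not overlap in either genotype, and chs-1 fell in daf-2 (-0.77 ± 0.18, adjusted p = 0.00463) and in wild type (-1.28 ± 0.18, adjusted p = 0.000106). The yolk receptor gene rme-2 fell in wild type (-0.85 ± 0.21, adjusted p = 0.00429), as did cbd-1, for a chitin-binding protein of the outer eggshell (-0.83 ± 0.23, adjusted p = 0.00806). In daf-2 these 2 genes changed by -0.39 and -0.28 in the main result. Without daf-2 day 1 replicate 1 both were called as lower there, rme-2 by -0.63 (adjusted p = 0.00865) and cbd-1 by -0.53 (adjusted p = 0.0321).

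The oocyte surface genes egg-1 and egg-2 are close relatives that sperm need in order to fertilise, and their values are uncertain where reads match both. In daf-2 egg-1 had 379, 391 and 486 CPM at day 9, against 372, 503 and 564 CPM at day 1, and egg-2 had 126, 117 and 164 CPM against 140.5, 187 and 205 CPM. Wild type had 419, 437 and 467 CPM of egg-1 at day 9, against 529.8, 611 and 641 CPM at day 1, and 124, 120.2 and 132 CPM of egg-2 against 188, 181 and 227 CPM. Both fell in wild type (egg-1 -0.43, adjusted p = 0.032, and egg-2 -0.66, adjusted p = 0.00357), and so did egg-3, for a pseudophosphatase of the egg cortex (-0.45, adjusted p = 0.0205). The calls of egg-1 and egg-3 in wild type were lost with upper-quartile scaling (adjusted p = 0.127 and 0.0846) and without any of day 1 replicate 2 or 3 or day 9 replicate 1 or 2. In daf-2 the 3 genes changed by -0.20, -0.39 and -0.20, and none was called in the main result. There egg-2 was called as lower without daf-2 day 1 replicate 1 (-0.53, adjusted p = 0.0152) or day 9 replicate 3 (-0.55, adjusted p = 0.0156).

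The chondroitin proteoglycan genes were abundant at both ages. The most abundant member of the set by counts, cpg-2 (III, 7102092 to 7103990), had 2436, 2704 and 3343 CPM in daf-2 at day 9, against 1748, 2471 and 2899 CPM at day 1, and 2831, 2738 and 2961 CPM in wild type at day 9, against 2178, 2436 and 2856 CPM at day 1. The ages overlapped in both genotypes (0.25 ± 0.19 and 0.19 ± 0.19, neither called), as they did for cpg-1 (0.30 and -0.22). The third of them, cpg-3, fell in daf-2 (-0.44 ± 0.15, adjusted p = 0.0284) and changed by -0.06 in wild type. The fall in daf-2 was lost with upper-quartile scaling, plain library totals and a fit of only the groups compared, and without daf-2 day 1 replicate 2 or 3 or day 9 replicate 1 or 2.

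Levels can be set side by side between genes only per length. Per kilobase of exons, perm-4 stood highest of the 46 genes at day 9, at 2082 CPM per kilobase in daf-2 and 3143 in wild type. At day 1 cpg-2 stood highest in both genotypes, at 1377 CPM per kilobase in daf-2 and 1445 in wild type, where perm-2 (1384), cgh-1 (1371), perm-4 (1310.3) and car-1 (1199) came next, each within 1 SD of its neighbour in this order. At day 9 cgh-1 was at 467 CPM per kilobase in daf-2 and 382 in wild type, and car-1 at 227 and 178. The lowest of all in every group was fbf-2, at 8.96 CPM per kilobase in daf-2 and 8.78 in wild type at day 9, and 12.03 and 16.5 at day 1. Meiotic genes were low throughout, from 22.7 CPM per kilobase (syp-1 in wild type at day 1) to 166 (mei-2 in wild type at day 1).

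The make-up of the set gives a view that does not depend on how libraries are scaled. P granule and small RNA genes took 16.4, 17.2 and 14.98% of the counts of the 46 genes in the daf-2 day 9 libraries, against 26.9, 26.5 and 24.0% in those of day 1. In wild type they took 14.5, 13.1 and 12.3% at day 9, against 29.1, 29.6 and 25.1% at day 1. The eggshell and oocyte surface genes took 50.5, 48.6 and 52.0% in daf-2 at day 9, against 42.01, 43.4 and 45.6% at day 1, and 53.9, 54.2 and 56.2% in wild type at day 9, against 40.25, 39.35 and 42.35% at day 1. The ages did not overlap for either group in either genotype. The gain in eggshell share lay in perm-2 and perm-4, which together took 14.4 to 16.7% in daf-2 at day 9, against 7.72 to 8.93% at day 1, and 20.7 to 23.2% in wild type at day 9, against 8.0 to 8.65% at day 1. The other 9 eggshell and oocyte surface genes took 33.8 to 36.7% in daf-2 at day 9, against 33.1 to 37.9% at day 1, and 32.3 to 33.5% in wild type at day 9, against 30.9 to 33.7% at day 1, with overlapping ages.

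Shares of the remaining groups, most of them smaller, moved less in percentage points. Meiotic genes averaged 3.76 ± 0.50% at day 9 and 3.34 ± 0.47% at day 1 in daf-2 (SD, n = 3), and 3.47 ± 0.26% and 2.86 ± 0.18% in wild type. Oocyte RNA-binding and maternal regulators averaged 23.9 ± 0.44% and 21.6 ± 0.71% in daf-2, and 23.9 ± 0.72% and 22.8 ± 1.1% in wild type, again day 9 first. Regulators of the mitotic zone averaged 5.77 ± 0.55% and 5.58 ± 0.40% in daf-2, and 4.59 ± 0.24% and 5.76 ± 0.32% in wild type. The ages did not overlap for meiotic genes and regulators of the mitotic zone in wild type, nor for the oocyte group in daf-2. Since shares add up to the whole, a group that loses share raises the others, and these values carry no test.

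**Figure D3:**
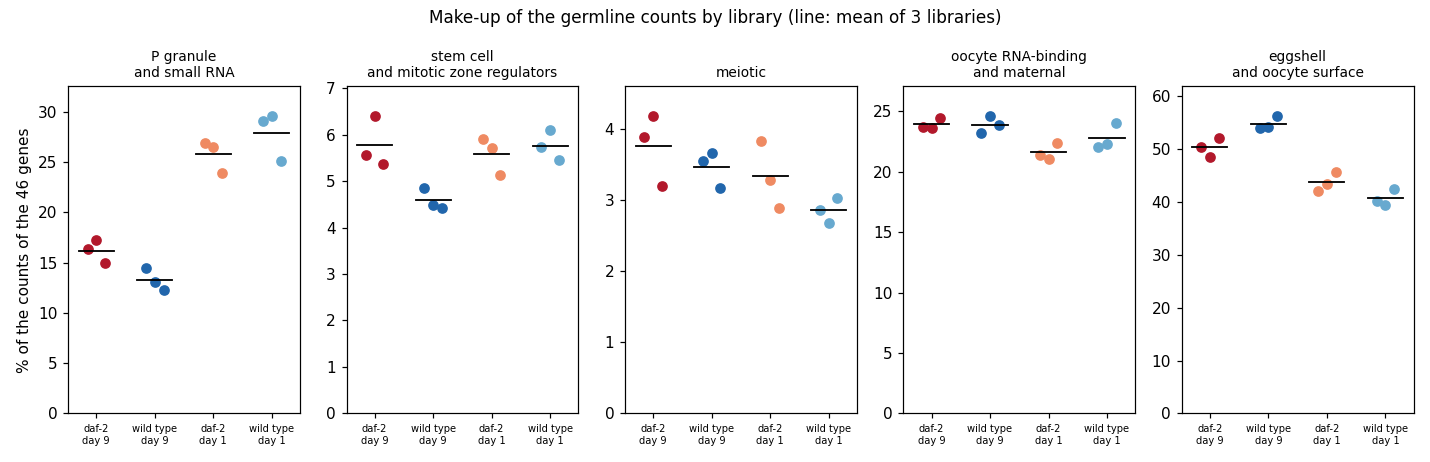
Percent of the counts of the 46 genes held by each of the 5 groups (y axis, from 0) in each of the 12 libraries, with a line at the mean of the 3 libraries of a group. The share of P granule and small RNA genes is 12.3 to 17.2% at day 9, against 24.0 to 29.6% at day 1, and that of eggshell and oocyte surface genes is 48.6 to 56.2% at day 9, against 39.35 to 45.6% at day 1.

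With libraries scaled instead to 125 other germline genes, an alternative chosen after the data were seen, 8 genes rose and 7 fell with age in daf-2, and 10 rose and 17 fell in wild type. The falls of car-1, cgh-1 and chs-1 and the rise of perm-4 were thus also called against the level of other germline genes, in both genotypes. Under this scaling glp-1 was called as higher in wild type (0.23, adjusted p = 0.0357), together with prg-1, rec-8, mex-6, nos-2 and cpg-2. The wild-type falls of fbf-1, htp-1, syp-2, mei-2, pos-1, spn-4, egg-1 and egg-3 were lost, as they were with plain library totals. Those totals also lost the falls of puf-8, deps-1, oma-1, oma-2, zif-1, cbd-1, egg-2 and rme-2.

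Within some of the near-identical pairs the balance per exonic length also differed with age. The ratio of fbf-1 to fbf-2 was 1.53 ± 0.07 at day 9 and 1.24 ± 0.12 at day 1 in daf-2 (SD, n = 3), and 1.33 ± 0.04 and 1.08 ± 0.08 in wild type. That of puf-3 to puf-11 was 1.56 ± 0.07 and 1.32 ± 0.10 in daf-2, and 1.45 ± 0.02 and 1.29 ± 0.04 in wild type, and for both pairs the ages did not overlap in either genotype. The ratio of egg-1 to egg-2 was 3.05 ± 0.21 and 2.66 ± 0.05 in daf-2, and 3.45 ± 0.14 and 2.95 ± 0.31 in wild type, where the ages overlapped. Ratios of oma-1 to oma-2 overlapped between the ages in both genotypes. Those of mex-5 to mex-6 were 1.98 to 2.07 at day 9, against 1.57 to 1.92 at day 1, in daf-2, without overlap, and overlapped in wild type. Those of glh-1 to glh-2 were 3.58 ± 0.16 and 3.98 ± 0.64 in daf-2, with overlap, and 3.55 ± 0.24 and 4.75 ± 0.42 in wild type, without overlap.

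At day 1 some of the genes were lower in daf-2 than in wild type. Of the 46, 0 were called as higher and 10 as lower, against 10.3% higher and 5.06% lower over all tested genes, and 44 of the 46 changes were negative. The median change was -0.41, against 0.04 over all tested genes. No member was called as higher by DESeq2, and edgeR gave an unadjusted p under 0.05 for 29 of the 46. The genes called were car-1 (-0.71 ± 0.20), zif-1 (-0.68 ± 0.14), rme-2 (-0.66), perm-4 (-0.65), pgl-3 (-0.62), gld-1 (-0.58), puf-11 (-0.58), glh-1 (-0.55), deps-1 (-0.46) and syp-2 (-0.41), with adjusted p from 0.00746 (zif-1) to 0.0498 (rme-2).

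This count rests on single libraries. Leaving out daf-2 day 1 replicate 1, or wild-type day 1 replicate 2, left 1. It was 5 when daf-2 day 1 replicate 2 or wild-type day 9 replicate 3 was left out, and 6 without wild-type day 9 replicate 1 or 2. It was 17 without wild-type day 1 replicate 1 and 23 without daf-2 day 1 replicate 3. A fit of only the 6 day 1 libraries called 1 gene, DESeq2 called 26 as lower, and scaling to other germline genes left 2 lower and 1 higher (cpg-3). The gene zif-1, whose product marks zinc finger proteins for destruction in the early embryo, was the 1 gene called as lower in all 20 alternatives. It had 62.4, 78.8 and 97.5 CPM in daf-2, against 109, 141 and 133 CPM in wild type, without overlap (adjusted p = 0.00746).

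The summed level of the 46 genes was 16345 CPM, 23399 CPM and 26005 CPM in the daf-2 day 1 libraries, against 26403 CPM, 32950.5 CPM and 28919 CPM in those of wild type. The sum of 23 genes listed as zygotic embryo markers was 328.9, 204 and 241.9 CPM in daf-2, against 235.2, 187 and 290.0 CPM in wild type. The list was written by name and includes pal-1 and nhr-57, and whether each gene is silent before the embryo was not tested. The library daf-2 day 1 replicate 1 had the lowest germline sum and the highest marker sum. Wild-type day 1 replicate 2 had the highest germline sum and the lowest marker sum. The libraries between them did not keep this order. Wild-type day 1 replicate 3 had 28919 CPM and 290.0 CPM, and daf-2 day 1 replicate 2 had 23399 CPM and 204 CPM. The part of embryos in the genotype difference was not tested.

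At day 9 few of the genes differed between the genotypes. Of the 46 genes, 0 were called as higher and 1 as lower in daf-2, against 4.54% higher and 6.26% lower over all tested genes, and the median change was 0.01. DESeq2 called 0 as higher, and edgeR gave an unadjusted p under 0.05 for 4. The gene called was perm-2, at 1098, 984 and 1148 CPM in daf-2, against 1726, 1321 and 1881 CPM in wild type (-0.61 ± 0.18, adjusted p = 0.0499). Its neighbour perm-4, at 2275, 2106 and 2528 CPM in daf-2, against 3335, 3178 and 3914 CPM in wild type, missed the threshold (-0.59 ± 0.18, adjusted p = 0.0514). Neither pair of groups overlapped.

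The call of perm-2 was lost without wild-type day 1 replicate 3, wild-type day 9 replicate 1 or 3, or any of the 3 daf-2 day 9 libraries (adjusted p from 0.0628 to 0.163). With the replicate number as a block in a fit of the 6 day 9 libraries, perm-2 (-0.61), perm-4 and nos-2 were called as lower in daf-2. That fit called csr-1 and car-1 as higher. It was added after seeing the data, and the labels do not say that a number marks a batch. In the fit of all libraries perm-4, nos-2, csr-1 and car-1 changed by -0.59, -0.32, 0.34 and 0.35, and nos-2, csr-1 and car-1 had adjusted p = 0.175, 0.166 and 0.32.

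**Figure D4:**
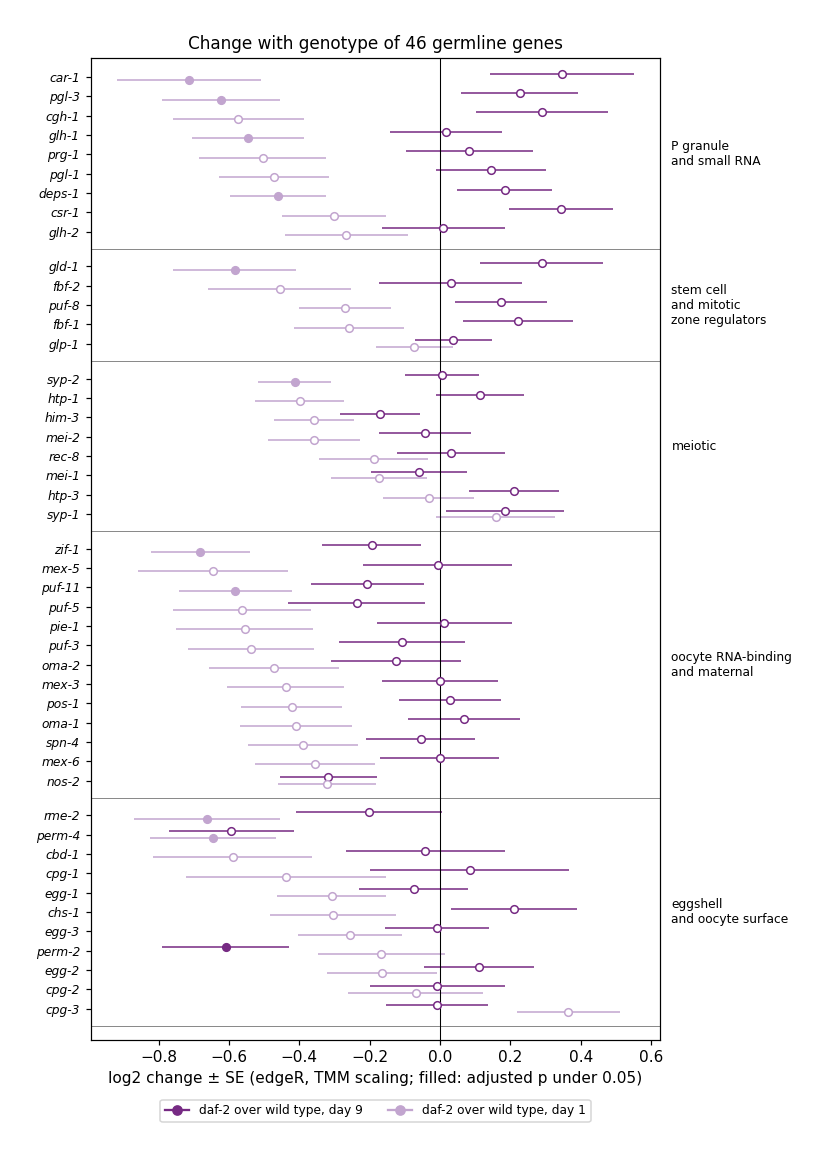
Log2 change with genotype (x axis, ± SE, daf-2 over wild type) of the 46 genes (y axis) at day 9 (dark) and day 1 (light); filled points have an adjusted p under 0.05. Most day 1 points lie left of 0, those of day 9 are spread about 0, and perm-2 and perm-4 lie at about -0.6 at day 9.

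The interaction asked whether the change with age differed between the genotypes. Taken as the daf-2 change less the wild-type change, it was positive for 44 of the 46 genes, with a median of 0.43 (-0.05 over all tested genes). No gene was called (0 of 46 in either direction, against 0.573% higher and 4.72% lower over all tested genes). The edgeR test gave an unadjusted p under 0.05 for 15, and DESeq2 called 6 as higher (gld-1, pgl-3, deps-1, csr-1, car-1 and cgh-1). The largest was that of car-1 (1.06 ± 0.29, adjusted p = 0.0535), followed by gld-1 (0.87 ± 0.25, adjusted p = 0.0607), cgh-1 (0.86 ± 0.26, adjusted p = 0.0764) and pgl-3 (0.85 ± 0.24, adjusted p = 0.057). With edgeR 1 gene was called without wild-type day 1 replicate 1, 3 without wild-type day 1 replicate 3 and 4 without daf-2 day 1 replicate 3. Scaling to other germline genes called gld-1 as higher and cpg-3 as lower.

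Among the groups, the median interaction was 0.64 for P granule and small RNA genes, 0.48 for regulators of the mitotic zone, 0.43 for oocyte RNA-binding and maternal regulators, 0.25 for eggshell and oocyte surface genes and 0.23 for meiotic genes. With scaling to other germline genes these medians were, in the same order, 0.35, 0.18, 0.15, -0.03 and -0.06, against -0.34 over all tested genes. The medians were not tested against each other. The 2 changes with age share no library, but both come from the same fit and the same scaling. In this set 6 genes fell in both genotypes, while 3 rose in both. The 6 were 24.0% of those that fell in wild type and 85.7% of those that fell in daf-2. Of the whole set, 54.3% fell in wild type. The matching overlap over all tested genes is not given here, and whether these shares are particular to the set was not tested.

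**Figure D5:**
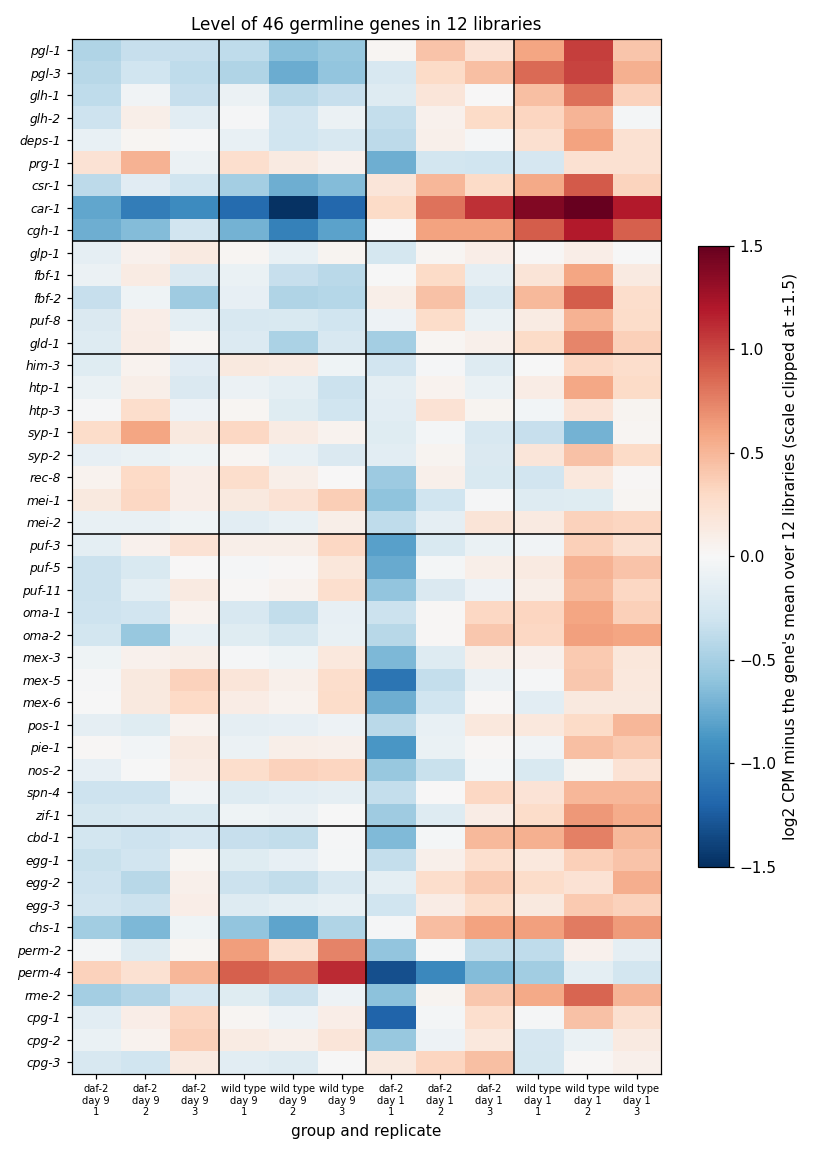
Log2 CPM of each of the 46 genes (rows, grouped by role in the order P granule, mitotic zone, meiotic, oocyte RNA-binding, eggshell) minus the gene's mean over the 12 libraries, with the colour scale clipped at 1.5 either way. The rows of car-1 and cgh-1 are blue at day 9, the rows of perm-4 and perm-2 are red in wild type at day 9, and the column of daf-2 day 1 replicate 1 is the bluest of the day 1 columns for oocyte genes.

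Other genes of the same pathways were taken from lists written by name. Over all tested genes, 21.9% rose and 21.5% fell with age in daf-2, and 31.2% rose and 25.6% fell in wild type. These shares stand beside the counts of each list here and below. In daf-2 the falls in the P granule, meiotic, oocyte and eggshell lists were near the share of all tested genes. Of 29 other P granule and small RNA genes 3 rose and 6 fell with age in daf-2, and 3 rose and 14 fell in wild type, with pgl-2 (-1.03 ± 0.12, adjusted p = 1.93e-05) having the smallest p of the falls in wild type and drh-3 (-0.60) in daf-2. The P granule gene meg-2 rose in both (0.72 in daf-2 and 0.71 in wild type). Of 34 other meiotic genes 1 rose and 6 fell in daf-2, and 1 rose and 20 fell in wild type, led by the crossover genes cosa-1 (-0.66) in daf-2 and zhp-3 (-1.05) in wild type. In both genotypes the gene that rose was mre-11, for a nuclease of break repair (0.49 and 0.34).

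Of 27 other oocyte and maternal genes 3 rose and 5 fell in daf-2, and 0 rose and 13 fell in wild type. The Y-box RNA-binding gene cey-2 had the smallest p of the falls in both, with -0.99 ± 0.14 in daf-2 (adjusted p = 0.000205) and -1.51 ± 0.15 in wild type (adjusted p = 6.58e-06), and tofu-6 that of the rises in daf-2 (0.41). Of 18 other eggshell and permeability barrier genes 1 rose and 4 fell in daf-2, and 0 rose and 7 fell in wild type. There perm-1 fell in both (-0.73 and -1.09), opposite to perm-4, and egg-4 rose in daf-2 (0.48, adjusted p = 0.0277). Of 17 other stem cell and sex-fate regulators 5 rose and 5 fell in daf-2, and 3 rose and 8 fell in wild type. The poly(A) polymerase gene gld-2 fell in both (-0.75 and -0.94), while fog-1, which directs germ cells to the sperm fate, rose in both (2.34 ± 0.15, adjusted p = 4.93e-07 in daf-2, and 1.98 ± 0.14, adjusted p = 9.9e-07 in wild type).

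Of 18 DNA replication genes, the process that FUdR blocks, 6 rose and 2 fell in daf-2, and 1 rose and 8 fell in wild type. The clamp gene pcn-1 rose in daf-2 (0.52), rpa-1 rose in wild type (0.31), and div-1 fell in both (-0.43 and -0.79).

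Markers of other gonadal cells were read beside these results, and their part in them was not tested. The summed level of 34 sperm markers was 75.1 to 185 CPM in daf-2 at day 9, against 25.8 to 83.2 CPM at day 1, and 140.4 to 419.8 CPM in wild type at day 9, against 83.2 to 146 CPM at day 1. Of 33 tested, 5 rose and 0 fell in daf-2, and 7 rose and 0 fell in wild type. Over all tested genes, 21.9% rose in daf-2 and 31.2% in wild type, and neither share of rising sperm markers was above these. Of the rises spe-41 had the smallest p (1.99 and 2.29), and no sperm marker was at 0 in all libraries of a group. The ages overlapped in the sum, and day 9 replicate 3 was the lowest day 9 library in both genotypes.

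The 24 zygotic embryo markers summed, without lsy-27, to 203 to 225 CPM in daf-2 at day 9, against 204 to 329 CPM at day 1, and to 166 to 173 CPM in wild type at day 9, against 187 to 290.0 CPM at day 1. Of 20 tested, 2 rose and 2 fell in daf-2, and 2 rose and 8 fell in wild type. Over all tested genes, 21.9% rose and 21.5% fell in daf-2, and 31.2% rose and 25.6% fell in wild type. The gene lsy-27 was left out of these sums because it was at 32.8 to 37.8 CPM at day 9 and 23.5 to 28.8 CPM at day 1 in daf-2, against at most 0.04 CPM in wild type. The early zygotic gene pes-10 was at 1.68, 1.17 and 1.016 CPM in daf-2 at day 9, against 6.35, 2.26 and 4.63 CPM at day 1, and at 0.25, 0.27 and 0.21 CPM in wild type at day 9, against 2.92, 1.92 and 4.41 CPM at day 1. It fell in both genotypes (-1.80 and -3.66). The sums of 12 somatic gonad markers were 200 to 232 CPM in daf-2 at day 9, against 188 to 225 CPM at day 1, and 285 to 316 CPM in wild type at day 9, against 218 to 228 CPM at day 1. Of 10 tested, 2 rose and 1 fell in daf-2, and 3 rose and 0 fell in wild type, with rises near the shares of all tested genes.

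Yolk, which the rme-2 receptor takes into oocytes, is made in the intestine. The 6 vitellogenin genes summed to 2.67 to 6.06% of all counts in daf-2 at day 9, against 10.9 to 16.5% at day 1, and to 6.11 to 7.17% in wild type at day 9, against 10.4 to 12.97% at day 1. All 6 fell in daf-2 and 4 fell in wild type, and their part in the changes of the 46 genes was not tested.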

How the data were processed

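RNA-seq counts of 12 whole-animal libraries were analysed. The authors deposited unnormalized counts, whole numbers for each gene in each library, per the file headers and values. Named without their roles in the submitters' processing notes are the build WBcel235, DESeq2 1.22.2, RSEM 1.3.1 and STAR 2.7.0e. Per the labels' protocols the libraries were unstranded, so reads of overlapping genes on either strand cannot be told apart. The treatment of reads matching more than 1 gene is not given here.

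Symbols were matched to gene identifiers and coordinates (1-based) with the Ensembl WBcel235 annotation. The members and lists were chosen with earlier results of these data known. Of the other lists, 2 symbols matched no gene and 1 matched 2 genes, and these were left out. The 46778 genes all had identifiers, and no row was a total. The test was that of edgeR 4.0.16 under R 4.3.3 (quasi-likelihood, TMM scaling, the package's low-count filter with a minimum count of 10, 1 fit of 4 group means over 12 libraries), with adjustment over 15523 genes. The SE is the log2 change divided by the square root of F. No 2 replicates agreed within sampling noise (chi-square over its degrees of freedom 12.2 to 109). At day 9 same-numbered libraries of the 2 genotypes deviated from their group means with r over genes of 0.36, 0.14 and 0.58. Wild-type replicate 1 with daf-2 replicate 2 gave 0.20, and wild-type replicate 2 with daf-2 replicate 1 gave 0.24. Replicates 1 and 2 were thus not told apart, while unlike pairs with a replicate 3 gave -0.46 to -0.25. The labels do not say that a number marks a batch. At day 1 the values of same-numbered libraries were 0.23, 0.34 and -0.02.

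Values in every library were printed for the members of each group with the highest mean CPM, the largest and smallest change with age in wild type and the smallest interaction p, for near-identical pairs, and for perm-2. Other lists give the called gene of smallest p. The fit was tested on simulated data in which few genes changed, as many up as down. Such data cannot show how the scaling acts where many genes change. Alternatives were DESeq2 1.42.0, other scalings and filters, a replicate block, fits of only the groups compared, and leaving out each library.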

Additional observations from a re-analysis of the deposited data

How the results depend on the processing

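Counts of the 46 genes are given as higher and lower calls. With plain library totals they were 21 and 3 for ageing in daf-2, and 9 and 9 in wild type, against 6 and 7, and 4 and 25. Scaling to other germline genes, chosen after seeing the data, gave 10 higher for ageing in wild type, 1 and 2 for genotype at day 1, 2 lower at day 9, and 1 and 1 for the interaction. For genotype at day 1, DESeq2 gave 26 lower and a fit of only the groups compared 1 lower. At day 9 there were 2 lower with upper-quartile scaling, the stricter filter or DESeq2, and 1 and 4 with only the groups compared. For the interaction 4 genes were higher with upper-quartile scaling or plain library totals, 2 with no low-count filter, 3 with the stricter filter and 6 with DESeq2.

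With the replicate block over all libraries, genotype at day 1 gave 1 higher and 21 lower, and with the block over the 6 day 9 libraries, added after seeing the data, day 9 gave 2 higher and 3 lower. In the full fit the block also dropped perm-2 and called perm-4 at day 9, and moved no other count past 1.5 times. At day 1 the block rests on a shared number only. At day 9 the correlations set replicate 3 apart but did not tell replicates 1 and 2 apart.

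Leaving out 1 library gave 1 to 6 higher and 5 to 12 lower for ageing in daf-2, 2 to 5 and 21 to 26 in wild type, 0 and 1 to 23 for genotype at day 1, 0 and 0 to 2 at day 9, and 0 to 4 and 0 for the interaction. Where this leaves 2 libraries in a group, the fit takes their spread to be like that of the other groups.

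Signs turned, with a call on at least 1 side, in 4 cases. With plain library totals these were glp-1 (0.30) and mei-2 (0.0289) for ageing in wild type and htp-1 (0.35) in daf-2. With scaling to other germline genes it was glp-1 in wild type (0.23). The cause was not tested. The lowest count of any member in any library was 447, and the effect of depth on the calls was not tested.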
